A study of Mus musculus with 8 samples.

Results

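Chemokine transcripts were followed in activated CD8 T cells after contact with ovarian cancer cells that carried much or little of the inhibitory ligand PD-L1. The 8 genes described are Xcl1, Ccl1, Ccl3, Ccl4, Ccl5, Ccl9, Cxcl9 and Cxcl10. Their probe sets were selected by the gene symbol of the array's annotation, which had to give exactly 1 symbol, and all 8 genes had at least 1 of the 9 probe sets found, among 12393 genes in all. Of the 8, 7 passed a filter on low values and were tested, and Cxcl9 did not.

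The cells came from 4 OT-1 mice, A to D, whose CD8 T cells carry a transgenic receptor for an ovalbumin peptide. All groups shared this genotype, an activation before the assay and 4 h with peptide-loaded ID8, a mouse ovarian cancer cell line, at 30 T cells per target cell, after which the T cells were collected with magnets. T cells of each mouse met PDL1-overexpressed ID8 in 1 culture and PDL1-depleted ID8 in another, with 1 array of total RNA for each, so each group held 4 arrays. How PD-L1 was raised or removed, whether each ID8 line was 1 clone, how the T cells were activated, and the age and sex of the mice are not given in the sources used here. The 8 arrays hold no T cells kept without targets, so the readings compare targets and animals and do not give the response to contact itself.

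Chemokines are small secreted proteins that draw cells along a gradient through G protein-coupled receptors, and they are grouped by the spacing of cysteines near the amino end into XC, CC and CXC families. Activated CD8 T cells release several of them soon after the T cell receptor is engaged, some from granules where they are bound to the proteoglycan serglycin. XCL1 draws cross-presenting dendritic cells through XCR1, CCL3 and CCL5 draw cells through CCR1, and CXCL9 and CXCL10, which interferon-gamma induces in many cell types, draw activated T cells through CXCR3. The arrays measured transcripts and not secreted protein.

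All values are the authors' deposited log2 expression values per probe set, which ran from 3.60 to 15.24 over the arrays. The filter kept genes with a mean of at least 6.87, the 40th percentile of all probe sets other than controls, which left 8003 genes. Probe sets differ in affinity, so levels were compared between arrays for the same probe set and never between genes. Arrays correlated with each other at 0.994 to 0.998, and their number limits the precision. Of 10 CD8 T cell markers, 8 were on the array and all 8 passed the filter, with list means of 12.15 to 12.27 over the arrays. None of 8 B cell markers or of 4 NK cell markers on the array passed the filter. Of 17 markers of macrophages and dendritic cells 5 passed, namely Csf1r, Cd68 and Msr1 of macrophages and Flt3 and Zbtb46 of dendritic cells, and 12 did not, among them Adgre1, Cd14, Lyz2 and Itgax.

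One feature of the arrays goes against a simple reading of the labels. Of 19 ID8 tumour cell markers on the array 12 passed the filter, and their mean was higher with PDL1-overexpressed targets in 3 of the mice: 8.57 and 7.91 in A, 8.97 and 8.44 in C, and 8.87 and 8.30 in D. Mouse B ran the opposite way, with 7.99 and 8.86. Over all tested genes the differences of mouse B correlated at -0.62, -0.60 and -0.51 with those of A, C and D, which correlated with each other at 0.49 to 0.58. The labels were kept as given. Whether the arrays of mouse B carry each other's label was not tested; if they did, the sign of every difference printed for mouse B would turn and the means over 4 mice would move. The values of the chemokine genes and of the gene lists between targets are therefore given with and without mouse B.

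The RefSeq promoter table (GRCm38.p6) held 6 of the 8 genes. Windows of 250 bases before the start are printed for Cxcl10, whose levels fell into high and low animals, for Cxcl9, its near neighbour that stayed under the filter, for Ccl1 and Xcl1, which were lowest in mouse A, and for Ccl3, which was lowest in mouse D. All 5 genes lie on the minus strand, and the bases run 5′ to 3′ along the gene. Windows are chr5:92348890-92349139 (Cxcl10), chr5:92328080-92328329 (Cxcl9), chr11:82179813-82180062 (Ccl1), chr1:164935523-164935772 (Xcl1) and chr11:83649379-83649628 (Ccl3).
Cxcl10: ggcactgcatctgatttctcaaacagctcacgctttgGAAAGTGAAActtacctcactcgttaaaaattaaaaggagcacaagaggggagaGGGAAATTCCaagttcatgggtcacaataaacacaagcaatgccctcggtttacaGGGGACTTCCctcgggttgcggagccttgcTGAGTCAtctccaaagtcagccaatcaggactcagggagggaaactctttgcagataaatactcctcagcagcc
Cxcl9: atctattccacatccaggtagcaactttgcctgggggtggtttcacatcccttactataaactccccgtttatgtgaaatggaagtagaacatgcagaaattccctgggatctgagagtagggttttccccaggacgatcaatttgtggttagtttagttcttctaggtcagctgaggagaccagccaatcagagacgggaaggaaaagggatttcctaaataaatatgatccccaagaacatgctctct
Ccl1: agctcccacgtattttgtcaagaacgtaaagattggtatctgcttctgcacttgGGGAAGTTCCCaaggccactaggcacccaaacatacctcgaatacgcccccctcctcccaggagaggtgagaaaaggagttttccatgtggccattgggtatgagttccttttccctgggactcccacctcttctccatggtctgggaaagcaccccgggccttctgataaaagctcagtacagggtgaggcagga
Xcl1: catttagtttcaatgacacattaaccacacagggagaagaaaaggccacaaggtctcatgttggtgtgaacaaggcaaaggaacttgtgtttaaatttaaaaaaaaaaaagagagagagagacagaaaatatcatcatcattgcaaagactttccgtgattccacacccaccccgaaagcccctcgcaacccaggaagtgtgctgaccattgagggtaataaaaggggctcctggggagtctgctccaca
Ccl3: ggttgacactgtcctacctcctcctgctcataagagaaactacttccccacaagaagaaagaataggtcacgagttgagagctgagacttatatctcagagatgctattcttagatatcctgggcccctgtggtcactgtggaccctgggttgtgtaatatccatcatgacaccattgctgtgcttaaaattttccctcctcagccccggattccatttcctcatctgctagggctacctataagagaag
Capitals mark matches to 4 motifs searched on both strands, namely the interferon-stimulated response element (GAAA, any 2 bases, GAAA), the interferon-gamma activated site (TTC, any 3 bases, GAA), the NF-kB site (GGG, any 3 bases, TTCC) and the AP-1 site (TGA, any base, TCA). Of 32851 promoter windows of this length in the table, 2.98%, 7.02%, 4.65% and 6.75% held them. Cxcl10 had 4 matches. GAAAGTGAAA, of the interferon-stimulated type, began 213 bases before the start, GGGAAATTCC and GGGGACTTCC, of the NF-kB type, began 159 and 104 bases before it, and TGAGTCA, of the AP-1 type, began 74 bases before it. Ccl1 had an NF-kB type match on each strand, GGGAAGTTCC from 196 bases and GGAAGTTCCC from 195 bases before the start, which overlap in 1 stretch. Ccl9, not printed, had an AP-1 type match 53 bases and an NF-kB type match 35 bases before its start. In these windows the letters of the 4 motifs were not found for Cxcl9, Xcl1 or Ccl3. A match is a string of letters and does not show binding. The fixed letters allow no variant, so the lack of a match does not show the lack of a site.

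The first comparison asked whether the PD-L1 of the target cells made a difference to chemokine transcripts. No chemokine gene passed the test, and the intervals were narrow. The mean difference, PDL1-overexpressed minus PDL1-depleted, ran from -0.086 for Ccl9 to 0.085 for Ccl1 on the log2 scale. The widest 95% interval among the 7 tested genes, that of Ccl9, ran from -0.26 to 0.089. Of the 7, 0 passed the paired limma test, beside 0 of 8003 genes (0%). At an unadjusted p under 0.05, 0 of the 7 passed, beside 228 of 8003 (2.85%). No chemokine gene went the same way in all 4 mice, which 10.5% of all tested genes did. This count rests on the labels of mouse B as given. Without mouse B, Ccl5 and Ccl9 were lower and Cxcl10 higher in 3 of 3 mice, a share not counted over all genes.

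Among the CC chemokines released at receptor engagement, Ccl3, the gene of MIP-1alpha, read 12.40, 12.52, 12.57 and 12.09 in mice A to D with PDL1-overexpressed targets and 12.61, 12.35, 12.53 and 12.04 with PDL1-depleted targets. Group means were 12.40 ± 0.22 and 12.38 ± 0.25 (SD, n = 4 each), and the groups overlapped over almost their whole range. The difference was 0.017 (SE 0.051, 95% interval -0.098 to 0.13). Ccl4, the gene of MIP-1beta, which overlaps Ccl3 in the RefSeq annotation, read 12.72, 12.97, 13.01 and 12.66 with PDL1-overexpressed targets and 12.90, 12.83, 13.10 and 12.64 with PDL1-depleted targets. Its difference was -0.026 (SE 0.043, 95% interval -0.12 to 0.071), higher in 2 of 4 mice. Ccl5, the gene of RANTES, a chemokine of effector and memory T cells, read 10.14, 11.65, 11.47 and 11.31 against 10.27, 11.58, 11.48 and 11.32. In mice C and D its values under the 2 targets lay within 0.0092 of each other, and the difference over mice was -0.019 (SE 0.035, 95% interval -0.098 to 0.061). Limma adjusted p was 0.9995 for each gene.

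Ccl1, the gene of a ligand of CCR8, had the largest positive mean difference over the 4 mice, though not without mouse B, when Cxcl10 did (0.094). It read 9.26, 10.53, 10.58 and 10.42 in mice A to D with PDL1-overexpressed targets and 9.46, 10.26, 10.49 and 10.24 with PDL1-depleted targets. The gene was thus higher with PDL1-overexpressed targets in mice B (0.27), C (0.089) and D (0.18) and lower in mouse A (-0.20). The mean difference was 0.085 (SE 0.067, 95% interval -0.066 to 0.24; limma adjusted p = 0.9995). Without mouse A it was 0.18 (SE 0.045; limma adjusted p = 0.99995), and without mouse B 0.023 (SE 0.054; limma adjusted p = 0.909). Leaving out either animal moved the value by more than 1.5 times and gave no call.

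Xcl1, the gene of lymphotactin, read 9.60, 10.60, 10.13 and 9.93 with PDL1-overexpressed targets and 9.83, 10.46, 10.09 and 9.84 with PDL1-depleted targets. Mouse A was again lower (-0.23) and mice B, C and D were higher (0.14, 0.035 and 0.092), with a mean difference of 0.0081 (SE 0.057). Cxcl10, an interferon-induced chemokine gene, read 6.86, 8.03, 7.16 and 8.11 against 6.70, 8.21, 7.13 and 8.01. Here mouse A was higher (0.15) and mouse B lower (-0.18), the reverse of Xcl1, while C and D were again higher (0.033 and 0.096), and the mean difference was 0.026 (SE 0.067). Ccl9, the gene of MIP-1gamma, read 7.14, 6.97, 7.13 and 6.65 against 7.21, 6.86, 7.20 and 6.96, close to the filter of 6.87. Its largest difference was -0.31 in mouse D, and the mean was -0.086 (SE 0.077). A second Ccl9 probe set, with a mean of 6.27, lay under the filter and read 5.87 in mouse D with either target.

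Cxcl9, the partner of Cxcl10 at CXCR3, read 6.27 to 6.44 with PDL1-overexpressed and 6.32 to 6.47 with PDL1-depleted targets. All 8 values lay under the filter, so the gene was not tested with the others. Without the filter its difference was -0.040 (SE 0.069; limma adjusted p = 0.998).

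**Figure D1:**
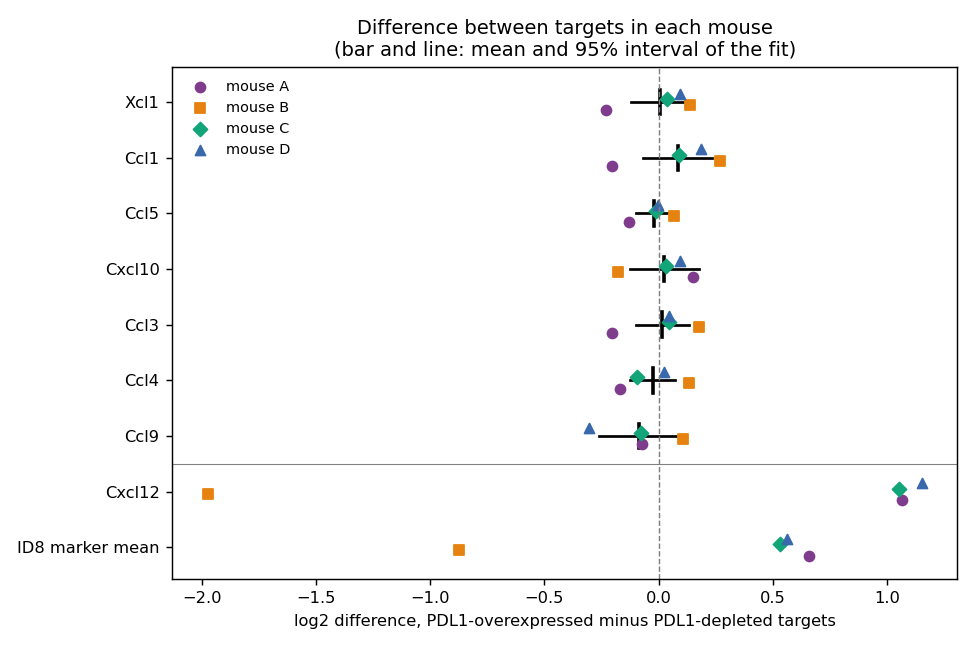
Difference between targets on the log2 scale (x axis, PDL1-overexpressed minus PDL1-depleted) for the 7 tested chemokine genes, for Cxcl12 and for the mean of 12 ID8 marker genes (y axis); points are the 4 mice, and black marks and lines give the mean and 95% interval of the paired fit for the 7 genes. Values of the 7 genes lie between -0.31 and 0.27, while those of Cxcl12 run from -1.97 to 1.15.

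By animal rather than by gene, 6 of the 7 chemokine genes were lower with PDL1-overexpressed targets in mouse A and 6 of 7 were higher in mouse B, with Cxcl10 the exception in both. In mice C and D the counts were 3 of 7 and 2 of 7 lower. Among all 8003 genes 49.5%, 38.6%, 60.1% and 46.9% were lower in mice A to D, and the 7 genes share arrays, so these counts are a description. Sizes were modest: 95% of all tested genes differed by less than 0.24, 0.25, 0.22 and 0.23 in mice A to D, and the only chemokine values beyond these were Ccl1 in mouse B and Ccl9 in mouse D. Without mouse B, 176 of 8014 genes passed the limma test, 151 higher and 25 lower, and 0 of the 7 chemokine genes were among them. Their differences without mouse B were -0.15 for Ccl9, -0.080 for Ccl4, -0.048 for Ccl5, 0.023 for Ccl1 and 0.094 for Cxcl10, with limma adjusted p from 0.237 for Ccl4 to 0.909 for Ccl1. The 95% interval of Ccl4 then ran from -0.14 to -0.017, with 1 of the 3 mice higher. Ccl5 and Ccl9 were lower in 3 of 3, and Cxcl10 was higher in 3 of 3. The share of all genes with 1 direction in these 3 mice was not counted, so this too is a description. Ccl3 and Xcl1 changed sign without mouse B, to -0.038 and -0.035, and stood at 0.091 and 0.088 without mouse A, with no call in either case.

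Other chemokine genes were few on these arrays. Of 26 on the array 8 passed the filter, namely Ccl22, Ccl24, Ccl28, Cx3cl1, Cxcl12, Cxcl13, Cxcl16 and Cxcl17, and 0 of the 8 passed between targets, with 2 higher and 6 lower and a median of -0.019 (0.0033 over all tested genes). Cxcl12, the gene of a stromal chemokine that binds CXCR4, was singled out after its values were seen. It read 7.73, 6.54, 8.03 and 8.06 in mice A to D with PDL1-overexpressed targets and 6.67, 8.52, 6.98 and 6.91 with PDL1-depleted targets. Its differences of 1.06, -1.97, 1.05 and 1.15 in mice A to D had the signs of those of the ID8 marker mean, 0.66, -0.88, 0.53 and 0.56. Upk3b, a mesothelial surface gene among those markers, differed by 1.67, -2.29, 1.89 and 1.82, and the matrix gene Fn1 by 1.03, -1.05, 0.70 and 0.73. Among the 7 tested chemokine genes Cxcl10 alone had these signs, at 0.15, -0.18, 0.033 and 0.096. Not all ID8 markers had them: Cav1 differed by 0.023, 0.020, -0.42 and -0.17 and Epcam by 0.012, 0.13, -0.25 and 0.025. With all 4 mice 8 of the 12 ID8 markers were higher and 4 lower. Without mouse B, 3 of these 8 other chemokine genes were higher and 2 passed the limma test. These 2 were Cxcl12 at 1.09 (adjusted p = 7.99e-10) and Cxcl17, named for this call, at 0.51 (adjusted p = 3.16e-06). Of the 12 ID8 markers 7 passed then, all higher. In all, 10 of them were higher and 2 lower, Cav1 (-0.19) and Epcam (-0.071). The part of target cell RNA in these differences was not tested.

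Receptors and the machinery around the chemokines gave no call between targets either. Of 7 receptor genes of the members on the array 2 passed the filter, Ccr1 at -0.017 (SE 0.073) and the scavenging receptor Ackr1 at -0.084 (SE 0.063). Cxcr3, Ccr3, Ccr8, Xcr1 and Ackr2 lay under it. Over all tested genes 4275 of 8003 were higher with PDL1-overexpressed targets. Of 20 tested genes of G protein and Rac signalling below these receptors 11 were higher and 9 lower (median 0.0026). Of 5 genes of granule storage and trimming 5 were higher and 0 lower (median 0.0085), but none was higher in more than 2 of the 4 mice. Srgn, which encodes serglycin, averaged 14.33 and 14.33 under the 2 targets and differed by 0.0053 (SE 0.017). Among 14 cytokine and granule genes made together with chemokines 7 were higher and 7 lower (median -0.0025), with Ifng at 0.0059 (SE 0.031) and Tnf at -0.011 (SE 0.042). Of 21 transcription factor genes 8 were higher and 13 lower (median -0.015). Of 17 genes of the interferon-gamma response 11 were higher and 6 lower (median 0.0057). With all 4 mice, 0 genes of these lists passed the limma test, and without mouse B 0 passed as well. Without mouse B the counts higher and lower were 0 and 2 for the receptors (median -0.094), 14 and 6 for signalling (0.012), 4 and 1 for storage (0.059), 4 and 10 for the co-produced genes (-0.020), 7 and 14 for the transcription factors (-0.025) and 6 and 11 for the interferon-gamma response (-0.017), beside a median of -0.0060 over all genes tested then.

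A further comparison was made between the 4 animals, which shows how far the chemokine genes varied from mouse to mouse. Among the tested genes, the range over the 4 mouse means was narrowest for Ccl9 (0.37 in log2 units) and widest for Ccl5 (1.41). Mean differences between targets were at most 0.086 in size with all 4 mice, while without mouse B that of Ccl9 was -0.15. The measures are not alike, since a range takes the extremes and in a mean opposite signs cancel. In single mice the difference between targets reached -0.31 (Ccl9, mouse D) and 0.27 (Ccl1, mouse B). Ccl5 spanned 2.66-fold, Cxcl10 2.53-fold and Ccl1 2.26-fold between the highest and the lowest mouse, and Xcl1 1.76-fold. All 4 were lowest in mouse A. Ccl3 and Ccl4 spanned 1.401-fold and 1.32-fold and were lowest in mouse D. The labels do not give what differed between the animals or their cultures, and in bulk RNA fewer cells of a type and less RNA per cell cannot be told apart.

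**Figure D2:**
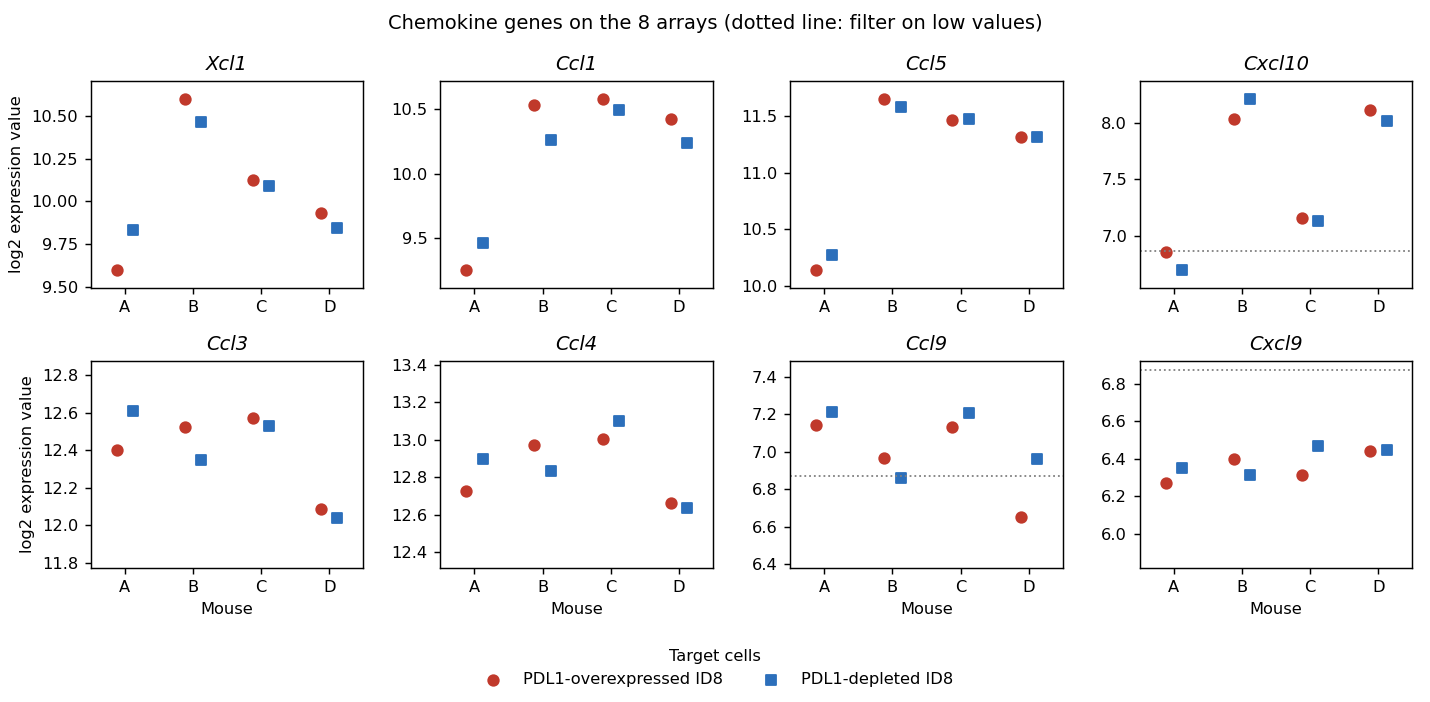
Deposited log2 expression values (y axis) of the 8 chemokine genes on each array, by mouse (x axis) and target cell (red circles PDL1-overexpressed, blue squares PDL1-depleted); each point is 1 array, each panel has its own y range, and the dotted line is the filter on low values. Points of the same mouse lie close together, and mouse A is lowest for Xcl1, Ccl1, Ccl5 and Cxcl10, while mouse D is lowest for Ccl3 and Ccl4.

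By the limma F test with the target as covariate, 6 of the 7 tested chemokine genes passed, beside 2347 of 8003 genes (29.3%). Adjusted p was 5.2e-07 for Ccl5, 2.71e-05 for Cxcl10, 9.82e-05 for Ccl1, 0.000531 for Xcl1, 0.00343 for Ccl3 and 0.00625 for Ccl4. Ccl9 did not pass (limma adjusted p = 0.0566). The ranges of Ccl5, Cxcl10, Ccl1 and Xcl1 were wider than those of 99.5%, 99.5%, 99.3% and 98.3% of tested genes, and those of Ccl3, Ccl4 and Ccl9 wider than those of 94.1%, 90.6% and 88.4%. The mouse accounted for 99.6% of the variance of Ccl5 and for 98.8% of that of Cxcl10, against a median of 73.8% over tested genes. The target accounted for 0.017% (Xcl1) to 5.62% (Ccl9), against a median of 2.83%. Each mouse has 1 array per target, so these p-values rest on how far the paired cultures of a mouse differ, and say nothing of repeat cultures on another day.

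**Figure D3:**
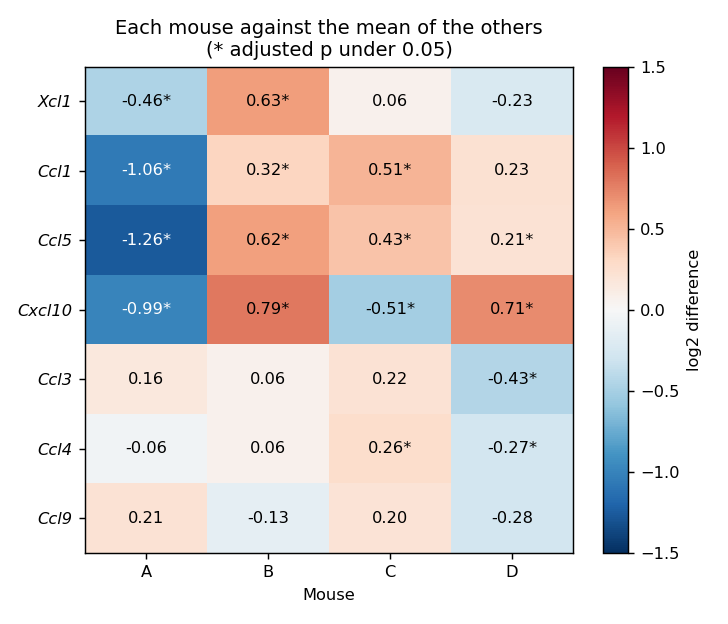
Log2 difference of each mouse (x axis) from the mean of the other 3 for the 7 tested chemokine genes (y axis); colour and number give the difference, and an asterisk marks a limma adjusted p under 0.05. Values run from -1.26 for Ccl5 in mouse A to 0.79 for Cxcl10 in mouse B, and the 4 upper genes are low in mouse A while the 3 lower ones are low in mouse D.

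Mouse A held the lowest values of Ccl5, Ccl1, Cxcl10 and Xcl1. Against the mean of the other 3 mice, 4 of the 7 genes were called lower there (12.7% of all tested genes were) and 0 higher (18.1%). Ccl5 read 10.14 and 10.27 in mouse A and 11.31 to 11.65 on the other arrays, a difference of -1.26 (SE 0.041, 2.40-fold lower; limma adjusted p = 9.05e-08). Ccl1 read 9.26 and 9.46 there and 10.24 to 10.58 elsewhere, a difference of -1.06 (SE 0.077, 2.09-fold lower; limma adjusted p = 1.61e-05). In neither gene did an array of mouse A overlap with an array of another animal. Xcl1 differed by -0.46 (SE 0.066; limma adjusted p = 0.00093), and its value of 9.83 with PDL1-depleted targets lay close to the 9.84 of mouse D. Cxcl10 differed by -0.99 (SE 0.077; limma adjusted p = 2.39e-05), though both mouse A values, 6.86 and 6.70, lay under the filter. These 4 calls held with each other mouse left out in turn.

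The rest of the order differed from gene to gene. For Ccl5 the mice stood in the order B, C, D, A, with every neighbouring pair apart on both arrays, and the difference among B, C and D passed without mouse A (range 0.30; limma adjusted p = 0.00894). Mouse D was called higher for Ccl5 against the mean of the others (0.21; limma adjusted p = 0.0127, and 0.0604 with no variance trend), a mean that holds mouse A. Without mouse A it was lower (-0.23; limma adjusted p = 0.0168). For mouse C the Ccl5 difference of 0.43 (limma adjusted p = 0.00041) fell to 0.0077 without mouse A (limma adjusted p = 0.936). For Ccl1 the arrays of B, C and D overlapped, and their range without mouse A was 0.20 (limma adjusted p = 0.122). The Ccl1 calls of mice B (0.32; limma adjusted p = 0.0340, and 0.0923 with no variance trend) and C (0.51; limma adjusted p = 0.00519) were lost with it, at -0.038 and 0.17 (limma adjusted p = 0.662 and 0.09997). The difference of Ccl1 between animals was thus not called without mouse A.

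Xcl1 had the same order as Ccl5, with all neighbours apart, though by little between D (9.84) and A (9.83) with PDL1-depleted targets. The share of all genes with every neighbouring pair apart was not counted. Xcl1 was highest in mouse B, at 10.60 and 10.46, 0.63 above the others (SE 0.066; limma adjusted p = 0.000585). Mouse B also held called differences in Ccl5 (0.62; limma adjusted p = 3.30e-05) and Cxcl10 (0.79; limma adjusted p = 0.000363). In all, 4 of the 7 genes were called higher in mouse B (6.3% of all tested genes) and 0 lower (2.96%). Without mouse B the range of Xcl1 over the other animals was 0.39 in place of 0.82 (limma adjusted p = 0.000183).

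Ccl3 and Ccl4, which activated T cells release together, were lowest in mouse D and not in mouse A, unlike Xcl1, Ccl1, Ccl5 and Cxcl10. Ccl9 also had its lowest mean in mouse D, and it correlated with Ccl3 at 0.75 and with Ccl4 at 0.59. Mouse D read 12.09 and 12.04 for Ccl3 and 12.66 and 12.64 for Ccl4. For these 2 genes none of its arrays overlapped with those of another mouse. Against the others Ccl3 differed by -0.43 (SE 0.059; limma adjusted p = 0.00236) and Ccl4 by -0.27 (SE 0.050; limma adjusted p = 0.0110). Mouse C was highest, called for Ccl4 (0.26; limma adjusted p = 0.0137) but not for Ccl3 (0.22; limma adjusted p = 0.0562), and mouse A stood near the middle (-0.058 for Ccl4 and 0.16 for Ccl3). The Ccl4 calls in mice D and C were lost with no trend in the variance model (limma adjusted p = 0.0703 and 0.0713). Both calls between mice rested on mouse D: without it the range of Ccl3 was 0.11 (limma adjusted p = 0.487) and that of Ccl4 0.24 (limma adjusted p = 0.0664). That of Ccl4 was also lost without mouse C (0.25; limma adjusted p = 0.0571). In mouse D 2 of the 7 genes were called higher, Cxcl10 and Ccl5 (4.56% of all tested genes), and 2 lower, Ccl3 and Ccl4 (4.09%).

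Ccl9 had its lowest mean in mouse D, at 6.65 and 6.96, which overlapped with mouse B, at 6.97 and 6.86. Its highest mean was in mouse A, at 7.14 and 7.21, which overlapped with mouse C, at 7.13 and 7.20. Neither D nor A was called against the others (limma adjusted p = 0.0921 and 0.103). The second Ccl9 probe set, under the filter, also had its lowest values in mouse D, 5.87 and 5.87, against 6.11 to 6.64 in the other animals. The gene passed the F test under some settings, with quantile normalisation (limma adjusted p = 0.0458), median centring (0.0450), robust variances (0.0285), array weights (0.0190) and without mouse B (0.00438). Ccl9 lies next to Ccl5 among the protein-coding genes of the RefSeq table, yet over the 8 arrays the genes correlated at -0.44.

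Cxcl10 separated the mice into high and low animals. Mice B and D read 8.01 to 8.21 and mice A and C 6.70 to 7.16, with no overlap. Mouse D was 0.71 above the mean of the others (SE 0.077; limma adjusted p = 0.000748) and mouse C 0.51 below it (difference -0.51; limma adjusted p = 0.0052), a call lost without mouse D (-0.30; limma adjusted p = 0.0736). In mouse C 3 of the 7 genes were called higher, Ccl1, Ccl4 and Ccl5 (3.09% of all tested genes), and 1 lower, Cxcl10 (5.35%). The mean of 17 other genes of the interferon-gamma response stood in the same order of mice, at 11.20 on both arrays of B, 11.09 and 11.07 in D, 10.77 and 10.79 in C and 10.70 and 10.69 in A. Iigp1, a GTPase of cell-autonomous defence, read 8.96 to 9.16 in B and D and 6.96 to 7.57 in A and C. Gbp2, another interferon-induced GTPase, read 11.58 to 11.74 and 10.35 to 10.94. Ifng itself did not follow this order: it read 13.04 and 13.15 in mouse A, 13.17 and 13.09 in B, 13.31 and 13.26 in C and 12.88 and 12.88 in D. Cxcl9 read 6.27 to 6.47 over all arrays, with overlap between every pair of neighbouring mice, and its range of 0.13 did not pass without the filter (limma adjusted p = 0.705).

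**Figure D4:**
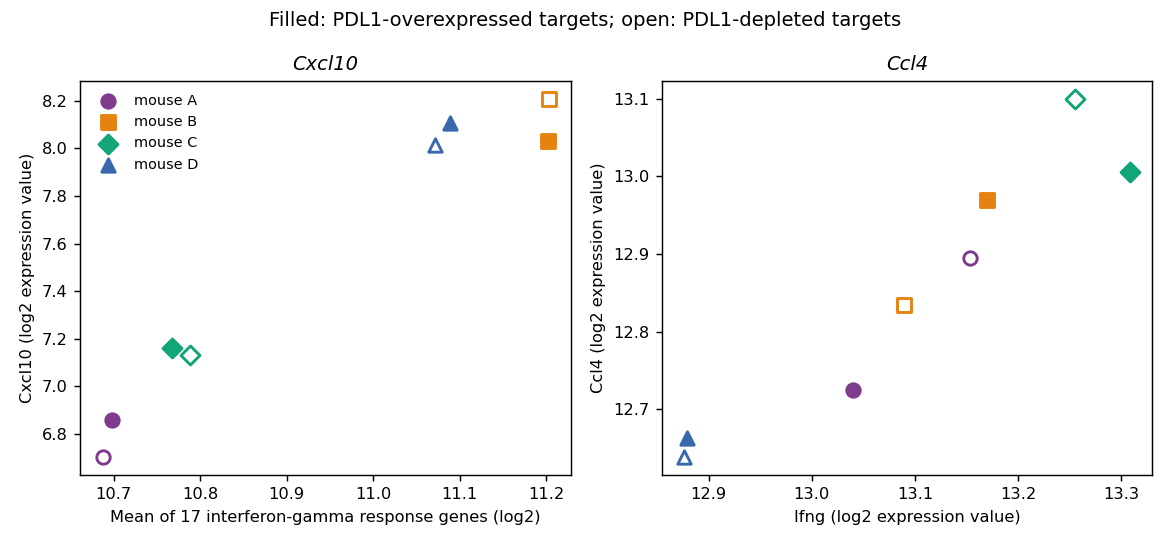
Log2 values of Cxcl10 against the mean of 17 interferon-gamma response genes (left) and of Ccl4 against Ifng (right) on the 8 arrays; colour and shape give the mouse, filled points PDL1-overexpressed and open points PDL1-depleted targets. Mice B and D lie at the upper right for Cxcl10, at 8.01 to 8.21, and mouse D lies at the lower left for Ccl4, at 12.64 and 12.66.

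Over the 8 arrays the chemokine genes formed no single pattern. The highest correlation between members was that of Ccl1 with Ccl5 (Pearson r = 0.97), followed by Ccl3 with Ccl4 (0.85), Ccl5 with Xcl1 (0.77) and Ccl3 with Ccl9 (0.75). Ccl3 correlated with Ccl5 at -0.18, and Cxcl10 with Ccl9 at -0.86. The arrays come from 4 mice, so each value is mostly a likeness in the order of the mice, and no p is given.

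Genes outside the family that were most like a member are named on the same measure. Closest to Ccl5 were BC029722 (r = 0.996), Vsir (0.995), the gene of the checkpoint protein VISTA, and Dapk2 (0.992), the gene of a calmodulin-dependent kinase. Closest to Ccl1 were Txk (0.992), the gene of a Tec family kinase of T cells, Hcst (0.988), the gene of the adaptor DAP10, and Havcr2 (0.981), the gene of the inhibitory receptor TIM-3. Cxcl10 was nearest to Tbx21 (0.994), the gene of the transcription factor T-bet, Gbp2 (0.989) and Zfp982 (0.988). Ccl4 was nearest to Arf2 (0.964), Rgs2 (0.952), a regulator of G protein signalling, and Ifng (0.9499). Ccl3 was nearest to Il27ra (0.964), Tnfsf4 (0.959), the gene of OX40 ligand, and Mtss1 (0.934). Xcl1 was nearest to Pold4 (0.984), Zmym1 (0.963) and Bnip3 (0.959), and Ccl9 to Rsph1 (0.965), Osbpl1a (0.956) and Fam160b1 (0.954).

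The genes that act with the chemokines varied between mice to different degrees. Ccr1, a receptor of CCL3 and CCL5, read 7.33 and 7.22 in mouse A and 7.86 to 8.12 in the other animals, a difference of -0.69 (SE 0.085; limma adjusted p = 0.000384). Of the 20 signalling genes 7 passed the F test, which 29.3% of all tested genes did. The strongest were Gng2, a G protein subunit, which was low in mouse A (-0.43), Rgs10, which was high in mouse C (0.42), and Rgs1, which was low in mouse D (-0.26). Of 5 storage and trimming genes 1 passed, Dpp4, the gene of a protease that trims chemokines, highest in mouse B at 10.45 and 10.31. Srgn spanned 0.090 and Chst15, a chondroitin sulfate enzyme, 0.40, and neither passed (limma adjusted p = 0.0734 and 0.0576). Of 8 other chemokine genes tested 0 passed, with Cxcl16 at 8.16 to 8.47 (limma adjusted p = 0.0709), Cxcl13 at 7.04 to 7.35 and Ccl28 at 7.12 to 7.46.

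Genes made together with chemokines varied widely, 13 of 14 passing the F test (29.3% of all tested genes did), but not in 1 order of mice. Gzma, a granule protease, read 8.56 and 8.67 in mouse A and 10.58 to 12.10 elsewhere, and so was low in the same animal as Ccl5. The growth factor genes Il3 and Csf2 were instead highest in mouse A, by 1.80 and 0.83, and lowest in mouse D. Of 21 transcription factor genes 12 passed, among them Fos and Jun, highest in mouse B by 1.21 and 1.01, and Nfkb2, highest in mouse A by 0.50. Of 17 interferon-gamma response genes 15 passed, with 12 called lower in mouse A (12.7% of all tested genes) and 13 higher in mouse B (6.3%). Among them Gbp3 was -0.76 in mouse A and 0.49 in mouse B, and Cd274, which encodes PD-L1, was 0.54 higher in mouse A.

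Of 8 CD8 T cell markers 5 passed the F test (29.3% of all tested genes did). Their median range was 0.21, against 0.82 for the 7 tested chemokine genes and 0.19 for all tested genes. In mouse A 4 of the 8 were called lower (12.7% of all tested genes) and 1 higher (18.1%), with a median of -0.10. Among those lower were Cd247 (-0.28), Cd3g (-0.21) and Cd8a (-0.17), while Cd2 was higher (0.25). Of 5 tested markers of macrophages and dendritic cells 1 passed, Cd68, at 8.07 and 8.15 in mouse C and 7.51 to 7.74 elsewhere. The mean of these 5 ran from 7.74 to 7.97 with PDL1-overexpressed and from 7.77 to 8.01 with PDL1-depleted targets. Csf1r read 7.93 to 8.34 and Msr1 6.89 to 7.19 over the arrays, and neither passed (limma adjusted p = 0.193 and 0.336). The CD4 markers Cd4 and Zbtb7b and the neutrophil marker Camp did not pass. Between targets Cd4 was lower with PDL1-overexpressed ID8 when mouse B was left out (-0.23, in 3 of 3 mice; limma adjusted p = 0.0250), and no gene of the CD8, macrophage and dendritic cell or neutrophil lists passed then. The ID8 markers had wider ranges over the mice, with a median of 0.61, and 3 of the 12 tested passed. These were Krt8 and Cav1, lowest in mouse A (-0.47 and -0.34), and Epcam, lowest in mouse D (-0.68). Epcam went against its list there, since the median difference of the 12 markers in mouse D from the other mice was 0.17. The part of other cells in the differences between mice was not tested.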

How the data were processed

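Total RNA of 8 T cell samples was measured on a 3' expression array, 1 array per sample. Per the labels' protocols, RNA was labelled with biotin. The deposited values are log2 expression values, a scale read from the values; the sources used here do not say how the authors summarised and normalised them. Sorted, the values of any pair of arrays lay within 0.167, and such evened distributions can mask a general shift. Of 22690 probe sets, 64 controls were left out, and 20380 had 1 symbol, 691 several and 1555 none in the platform annotation. Of their Entrez identifiers 29 were not in the RefSeq table and kept their symbol. The brightest probe set stood for its gene, and 4390 genes under the filter were not tested. The table held 0 columns of other samples.

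The fits used limma 3.58.1 and R 4.3.3 (eBayes with a trend, two-sided, Benjamini-Hochberg adjustment over all tested genes, threshold 0.05). Targets were compared with the mouse as a block, because the series design states that T cells of each mouse were divided. Deviations of the paired arrays correlated at 0.82, 0.16, 0.61 and 0.64 in mice A to D. The steps were tested on simulated data. Genes named are the members, the 3 genes most like each, up to 3 genes of each of 14 lists with the smallest p between mice, and Ifng, Tnf, Srgn, Cd8a, Cd274, Upk3b and Fn1; others are defining markers, genes of a list given to say which passed the filter, or said to be singled out. Members and lists were chosen with earlier results of these data known.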

Additional observations from a re-analysis of the deposited data

Results flagged for a closer look

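For the 8 chemokine genes and 12 list means, the distance of the highest or lowest array from the next one was taken as a share of the range over the 4 arrays of a target group. This share was past Dixon's 95% critical value in 4 of 40 cases, where chance gives about 1 in 20, or 2. All 4 lay among the arrays with PDL1-overexpressed targets. Mouse A was lowest for Ccl1 (0.881), for the mean of the tested receptors, Ccr1 and Ackr1 (0.846), and for the mean of the CD8 T cell markers (0.983). The share takes no account of size: the marker mean was 12.18 in mouse A and 12.25 in each of B, C and D. For each of these items mouse A was also lowest with PDL1-depleted targets, without passing the critical value. Mouse B was highest for the mean of the transcription factor genes (0.830).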

How the results depend on the processing

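Between targets, 0 genes passed in the paired fit and 0 without the replicate block, 0 with the mouse as a random block, and 0 under quantile normalisation, median centring, other filters, other probe set rules, other variance models, array weights and thresholds of 0.01 and 0.10. Leaving out a mouse gave 0 to 176 genes, 176 without mouse B, and 0 chemokine genes under every setting. Between mice, 1093 genes passed at a threshold of 0.01, and leaving out a mouse gave 539 (without A) to 3557 (without B), in place of 2347. The chemokine genes passing numbered 4 to 7 in place of 6. Calls of a chemokine gene in a mouse against the others numbered 16, and 10 (without D) to 17 (without B) with a mouse left out. Ccl1 in mouse B ran from -0.038 (without A) to 0.55, and Ccl5 in mouse D from -0.23 (without A) to 0.47. With no trend in the variance model, Ccl1 in B, Ccl5 in D, and Ccl4 in C and D were no longer called (limma adjusted p = 0.0923, 0.0604, 0.0713 and 0.0703). Leaving out a mouse changes the mean that an animal is set against. With 4 mice, an exact two-sided sign-flip test has 16 sign patterns and cannot go below p = 0.125.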
